A study of Mus musculus with 6 samples.

Results

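Mitochondrial ribosomal proteins are described here in activated mouse CD8 T cells, as 78 protein-coding genes of the 22288 genes of the table whose symbols begin with Mrpl or Mrps and a digit. Of these, 49 carry the large-subunit prefix Mrpl and 29 the small-subunit prefix Mrps. The prefix records how each protein was first assigned, and structures have since moved a few of them. The products of Mrps18a and Mrps30 sit in the large subunit, and that of Mrps36 is counted in neither. Transcript levels were in TPM, which correct for gene length and library total, so levels of different genes can be set beside each other.

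The mitochondrial ribosome translates the messenger RNAs made from mitochondrial DNA, which encode core subunits of the respiratory chain and ATP synthase. Its ribosomal RNAs come from mitochondrial DNA, whereas all of its proteins are encoded in the nucleus, made in the cytosol and imported. Many of them descend from bacterial ribosomal proteins, and the others were added during the evolution of mitochondria. In T cells, activation through the antigen receptor is known to enlarge the mitochondrial compartment and its translation machinery.

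The cells were naive CD8 T cells of wild-type C57BL/6 mice, an inbred laboratory strain, taken from the spleen. In both groups they were activated for 48 h with anti-CD3 and anti-CD28 antibodies, which together imitate antigen and costimulation, in RPMI medium that held fetal bovine serum, recombinant mouse IL-2, L-glutamine and 2-mercaptoethanol. One group of 3 libraries came from cells given the solvent DMSO and the other 3 from cells given ponatinib at 10 nM, a multi-kinase inhibitor developed against BCR-ABL. Nothing in the labels says that replicates were separate mice or cultures, and p-values then cover only the differences among these libraries, which may be technical. In bulk RNA, fewer cells of a type and less RNA per cell cannot be told apart.

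The CD8 T cell label fitted the marker genes: all 9 CD8 T cell markers were kept for testing. Of these 4 rose (Cd8a, Cd8b1, Cd3e and Trbc2), 1 fell (Cd2, from 420 to 240.4 TPM, limma adjusted p = 0.00249) and 4 were not called. Cd8a, the defining co-receptor chain, stood at 238 ± 9.41 TPM with DMSO and 346 ± 22.0 TPM with ponatinib (SD, n = 3 each), against 1.58 and 4.70 TPM for Cd4. Summed TPM of the markers of other cells were higher with ponatinib. The 10 B cell markers, 6 of them above a mean of 1 TPM, summed to 333 to 360 with DMSO and 432 to 448 with ponatinib. The 6 NK cell markers (2 above 1 TPM) summed to 19.2 to 32.0 and 40.1 to 50.7, most of it from Eomes (24.0 and 37.8 TPM), which activated CD8 T cells also express, while Ncr1, Klrb1c and Klrg1 were each under 0.3 TPM. The 10 myeloid markers (2 above 1 TPM) summed to 2.64 to 3.23 and 7.90 to 10.3. The 4 CD4 T cell markers, all above 1 TPM, summed to 5.49 to 14.9 and 18.4 to 22.9. The 8 erythroid and platelet markers (2 above 1 TPM) summed to 0.797 to 1.89 and 4.12 to 8.37, with Gp9 at 0 in every library. Their part in the results below was not tested. DMSO replicate 3 stood apart: its 13 mitochondrial messenger RNAs took 4.78% of the TPM against 7.16% to 10.7% in the other 5 libraries, and it held the highest of the 3 DMSO values in 63.1% of tested genes. It did so in 34 of the 78 mitochondrial ribosomal protein genes.

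The promoters of these genes are known to be read by nuclear respiratory factors and ETS-family factors such as GABP. RefSeq promoter windows on GRCm38.p6, from 250 bases before to 50 bases after the start, were matched by symbol for 69 of the 78 genes. The ETS core CCGGAAG, searched on both strands, was present in 26 of the 69 (37.7%), in 26.5% of the tested genes and in 9.93% of all 27025 genes with a window. It was found for 6 of the 15 members that rose with ponatinib and for 20 of the 52 that were not called. Sites upstream of the RefSeq start of 3 genes that rose are shown because each holds this core, which is in capitals. They are written 5′ to 3′ along the gene's own strand. GENCODE places the Mrpl18 site in its first exon, the Mrpl27 site in an exon of Eme1 on the opposite strand and the Mrpl51 site in a noncoding transcript of Mrpl51.
Mrpl18, chr17:12916314-12916341, minus strand: actgaaaacgCCGGAAGtagggggctgc
Mrpl27, chr11:94653725-94653753, plus strand: gtccgcaagacCCGGAAGtagatctatcc
Mrpl51, chr6:125192099-125192127, plus strand: caggggctaaaCCGGAAGtatttgactgg

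In other genes that rose the core lay at or just after the start. The next 3 sites show it there, in capitals. The capitals in Mrps21 are its reverse complement.
Mrpl33, chr5:31613937-31613965, plus strand: ccgcgcatgccCCGGAAGtagtcgttgag
Mrps12, chr7:28741803-28741831, minus strand: aaggaggaaccCCGGAAGgggctggaggt
Mrps21, chr3:95871479-95871507, minus strand: cgtagcttccgCTTCCGGtccgcagagac

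The YY1 core AAGATGGC was present on either strand in 12 of the 69 windows (17.4%), in 6.68% of tested genes and in 3.19% of all genes with a window. Its letters include a start codon, so a match just after the start can also be the beginning of the coding sequence. The core was found for 4 of the 15 members that rose with ponatinib and for 8 of the 52 that were not called. Sites of 3 genes that rose are shown, with the core in capitals.
Mrpl42, chr10:95501904-95501933, minus strand: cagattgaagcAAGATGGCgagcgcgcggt
Mrpl49, chr19:6057721-6057750, minus strand: gttgaggcgccAAGATGGCagcagcggtgt
Mrps7, chr11:115604147-115604176, plus strand: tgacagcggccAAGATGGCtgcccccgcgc

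The NRF1 core GCGCATGC was found in 8 of the 69 windows (11.6%), against 7.33% of tested genes, and the E-box CACGTG, the letters bound by MYC and its partners, in 5 (7.25%), against 12.5% of tested genes. The TATA box letters TATAAA were in 5 windows (7.25%) and in 7.70% of tested genes. These matches are descriptions of letters in a window and not of binding.

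Mitochondrial ribosomal protein transcripts were of moderate and rather even abundance in these cells. The median over the 78 genes of the mean level was 76.9 TPM, with quartiles at 57.1 and 112 TPM, and 52 genes lay within 2-fold of the median. Together the 78 genes held between 0.709% and 0.764% of all TPM in each library. The highest and the lowest gene differed 37.3-fold in mean TPM. Only 9 genes exceeded 200 TPM and 4 lay under 20 TPM.

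**Figure D1:**
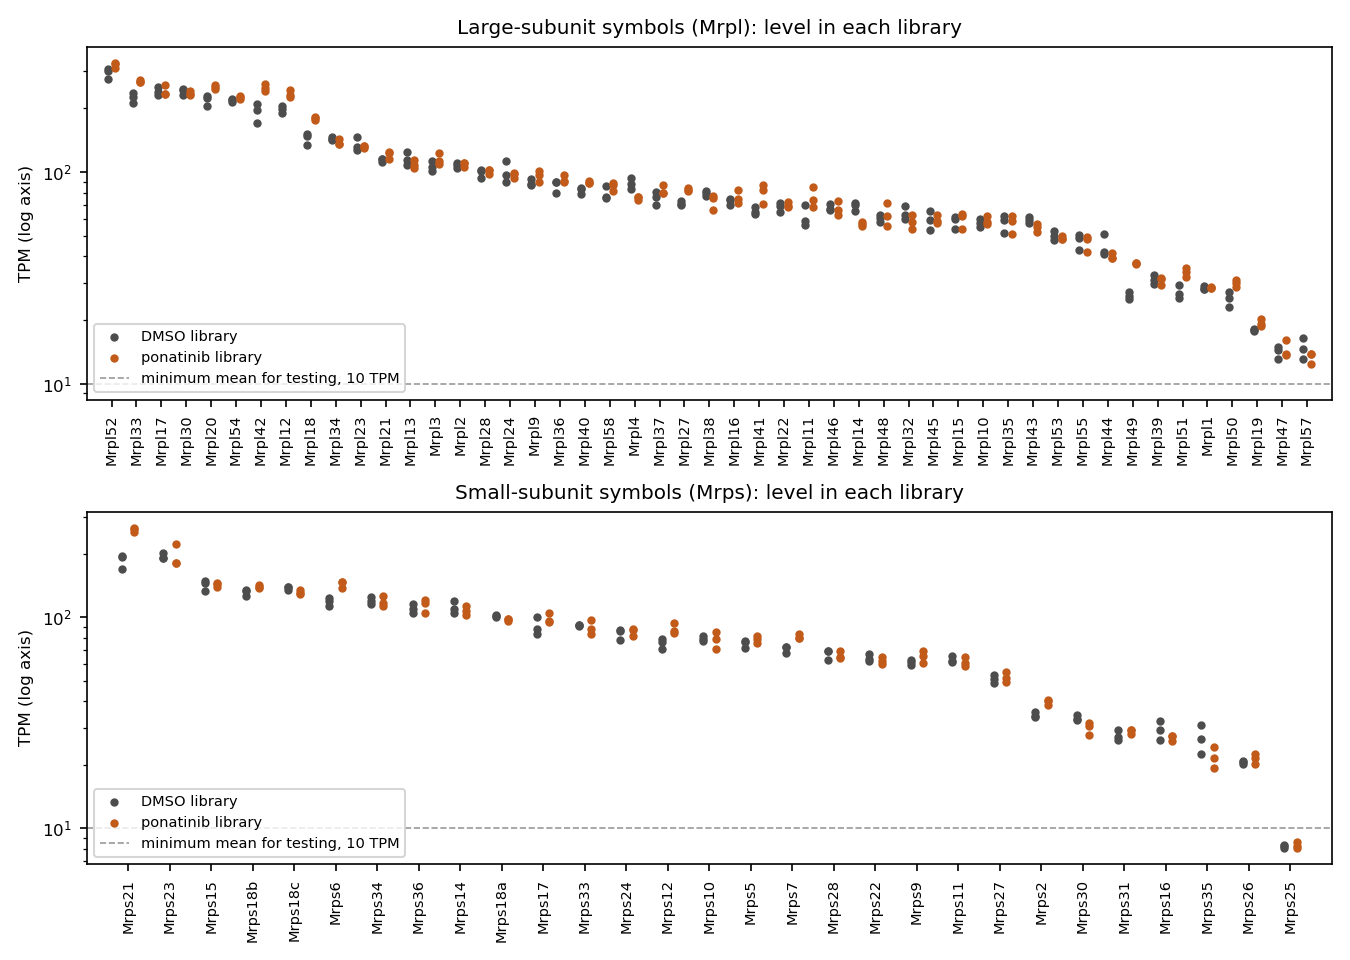
TPM of each of the 78 genes in each of the 6 libraries on a log axis, large-subunit symbols above and small-subunit symbols below, ordered by mean level. Grey points are the 3 DMSO libraries, orange points the 3 ponatinib libraries, and the dashed line is the minimum mean of 10 TPM for testing. Mrps25 is the 1 gene under that line.

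The most abundant was Mrpl52, a large-subunit protein with no bacterial counterpart. Its levels were 273.9, 307.7 and 299.6 TPM in the DMSO libraries and 309.5, 325.5 and 327.6 TPM in the ponatinib libraries. All ponatinib libraries were above all DMSO libraries, by less than the test required (log2 difference 0.13 ± 0.06 SE, limma adjusted p = 0.110). Mrpl33, the counterpart of bacterial bL33, and Mrpl17, of bL17, followed among large-subunit symbols, Mrpl17 with 240 ± 10.4 TPM with DMSO and 242 ± 14.9 TPM with ponatinib (SD, n = 3 each). Among small-subunit symbols the highest levels were those of Mrps21, the counterpart of bS21, Mrps23 and Mrps15. Mrps23, a mitochondria-specific protein, ranged from 191 to 203 TPM with DMSO and from 180 to 223 TPM with ponatinib, and its groups overlapped. Mrps15, the counterpart of uS15, ranged from 133 to 148 TPM with DMSO and from 140 to 145 TPM with ponatinib.

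Summed over its 49 genes, the large subunit reached 4697, 4706 and 4678 TPM with DMSO and 4877, 5008 and 5068 TPM with ponatinib. The 29 small-subunit symbols summed to 2389, 2421 and 2409 TPM with DMSO and to 2439, 2596 and 2571 TPM with ponatinib. Both sums were higher in every ponatinib library than in any DMSO library, as were 37.6% of all tested genes taken singly. The median log2 difference of all tested genes was 0.10. For the small subunit the closest libraries were at 2439 TPM with ponatinib and 2421 TPM with DMSO. The ratio of the large-subunit to the small-subunit sum was 1.95 ± 0.01 with DMSO and 1.97 ± 0.04 with ponatinib (SD, n = 3 each), and the groups overlapped. Between the groups the mean ratio differed by less than the SD of the ponatinib libraries and slightly more than that of the DMSO libraries.

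The comparison asked whether 10 nM ponatinib during activation altered the transcript levels of the mitochondrial ribosome. The changes were few and small. Of the 77 genes whose mean reached 10 TPM, 15 rose (19.5%) and 2 fell (2.60%), where 27.3% of all 6816 tested genes rose and 9.13% fell (limma on log2(TPM + 1), Benjamini-Hochberg adjusted p under 0.05 over all tested genes). Both shares lay below those of all genes, but with no filter on low values 16.7% of the members rose against 13.5% of 15420 genes, and whether the difference exceeded chance was not tested. No member moved by more than 0.5 on the log2 scale, whereas 645 tested genes (9.46%) did. The median log2 difference was 0.03 over the members and 0.10 over all tested genes.

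The direction of the calls depended on the scaling. In the deposited TPM the typical gene stood 0.10 higher with ponatinib on the log2 scale, and with libraries rescaled by medians of ratios that median was 0.00, so the members' median was 0.07 below the median of all tested genes in either scale. This gap depended on the genes it was set against. Without a filter on low values the median of all genes was 0.03 and so was that of the members, and without DMSO replicate 2 the gap was 0.04. With medians of ratios, 2 members rose (Mrpl49 and Mrps21) and 11 fell, against 1059 higher and 1138 lower of all genes. With quantile normalization, 9 rose and 6 fell (11.7% and 7.79%), against 18.3% and 14.5% of all genes. No member called in one direction was called in the other under any of the settings tried. Without DMSO replicate 3, the library that stood apart, 17 members rose and 3 fell, as did 39.3% and 9.86% of all genes. The counts fell with those of all genes when another library was left out. Without DMSO replicate 1 they were 9 and 1 (17.2% and 7.02% of all genes), and without DMSO replicate 2 they were 13 and 2 (20.2% and 8.88%). Without ponatinib replicate 1 they were 12 and 1 (21.0% and 6.50%). Without ponatinib replicate 2 or ponatinib replicate 3 they were 8 and 1 (16.0% and 6.58%, and 15.2% and 6.36%). The plot of calls by setting shows these counts beside those with each library left out.

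**Figure D2:**
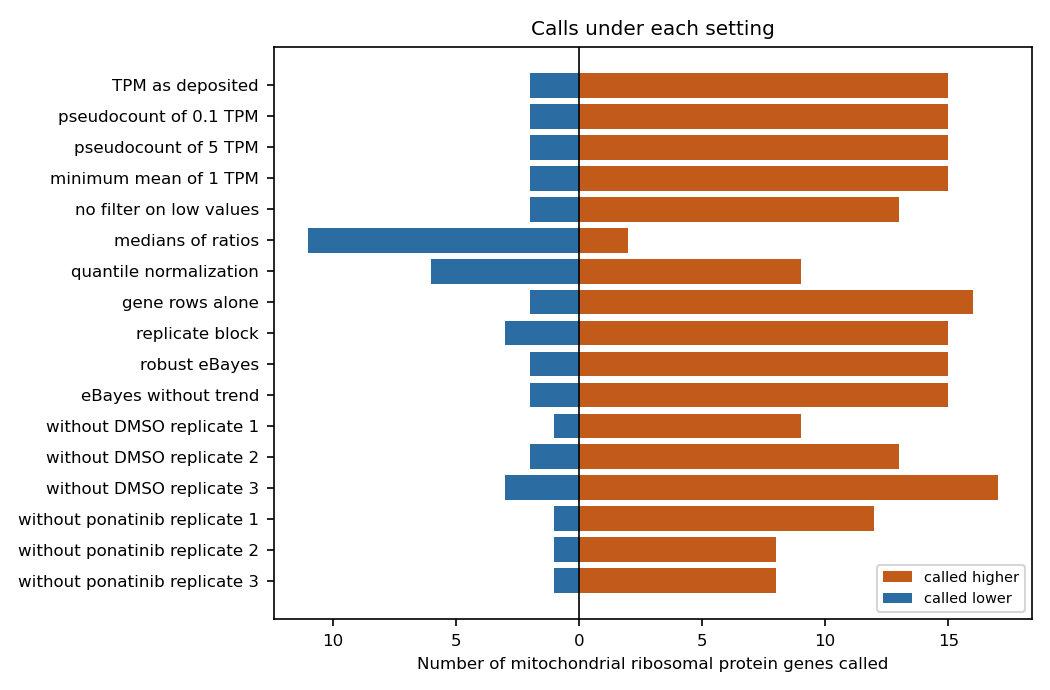
Number of mitochondrial ribosomal protein genes called higher (orange, to the right) or lower (blue, to the left) with ponatinib, for the values as deposited and for each alternative setting. The bars turn from 15 higher and 2 lower as deposited to 2 higher and 11 lower with medians of ratios. Of all tested genes, 27.3% were higher and 9.13% lower as deposited, and 15.5% and 16.7% with medians of ratios.

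Replicates of these genes lay close together. The median coefficient of variation over members was 4.53% among DMSO and 3.98% among ponatinib libraries, against 7.17% and 4.97% over all tested genes. The tested members were also more abundant, with a median of 76.95 TPM against 35.57 TPM over all tested genes. DMSO replicate 3 was the highest DMSO library in 63.1% of tested genes and in 34 of the 78 members. The part of level and of this library in the spread was not tested. For 72 of the 77 genes (93.5%) the 95% interval of the log2 difference lay within 0.5 of 0, and for 43 (55.8%) within 0.25. Over all tested genes those shares were 73.0% and 20.5%. For 42 of the 77 members the absolute difference itself was under 0.1, against 30.5% of all tested genes. These shares were measured from 0, whereas the median of all tested genes was 0.10. Measured from that median, the median absolute deviation was 0.12 over the members and 0.15 over all tested genes. The 2 groups of libraries did not overlap, with ponatinib higher, in 20 members, against 37.6% of all tested genes, and with ponatinib lower in 6 members, against 13.8%.

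**Figure D3:**
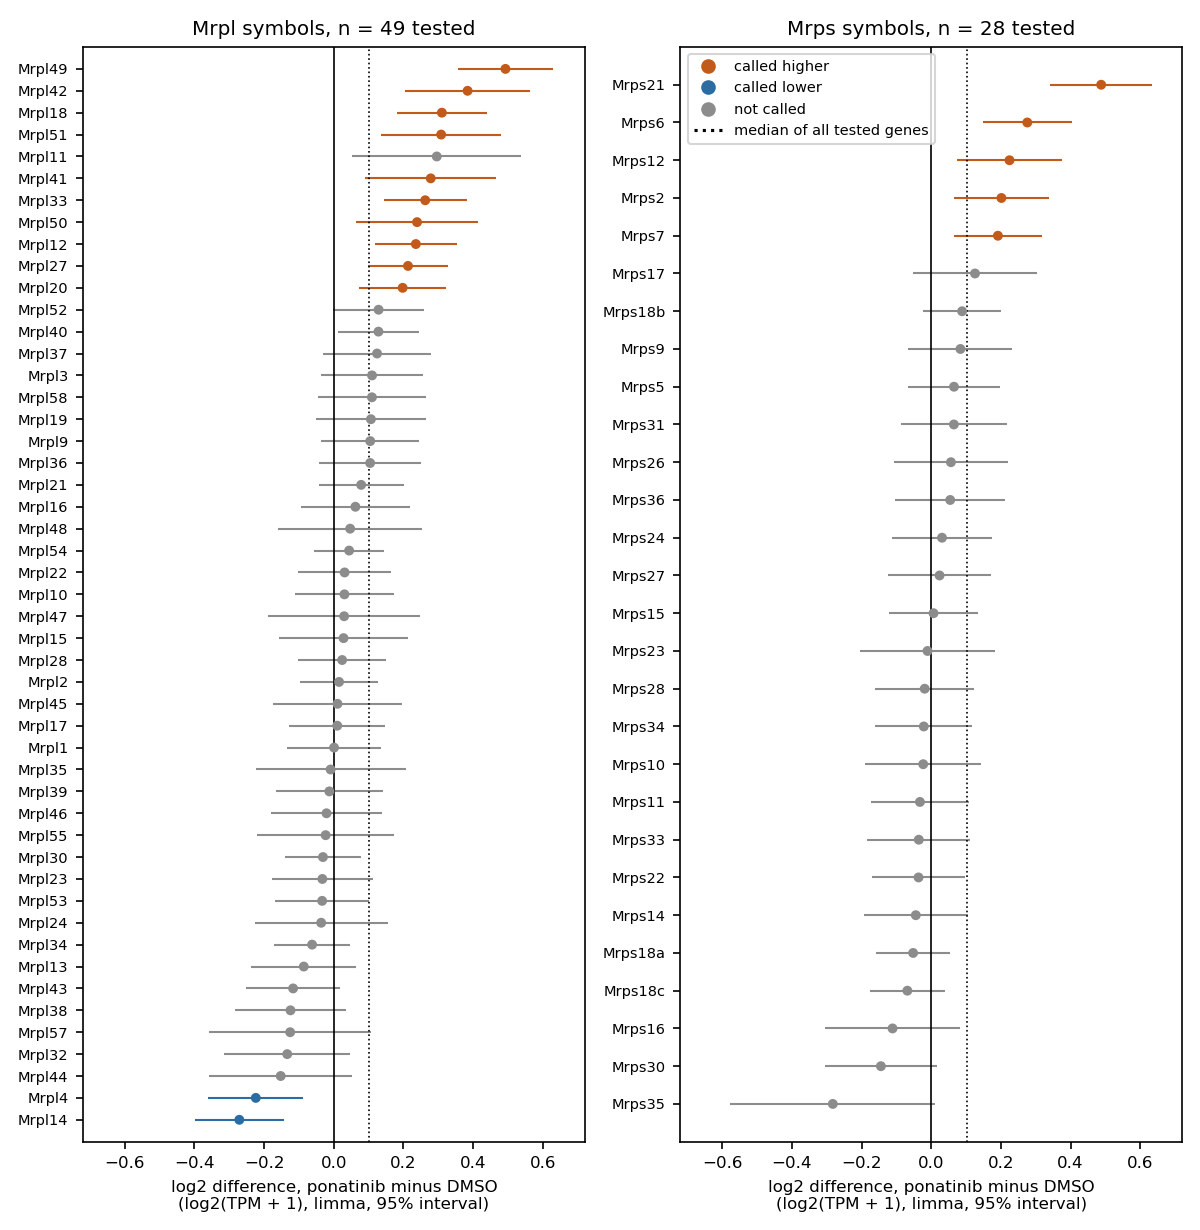
Log2 difference between ponatinib and DMSO for each of the 49 Mrpl and 28 Mrps genes tested, with its 95% interval from limma. Orange points were called higher, blue points lower and grey points not called. The solid line marks 0 and the dotted line the median of all tested genes, 0.10.

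Among large-subunit symbols 10 of 49 rose and 2 fell, with a median log2 difference of 0.03 and a range from -0.27 to 0.49. Among small-subunit symbols 5 of 28 rose and 0 fell, with a median of 0.02 and a range from -0.28 to 0.49. These were 20.4% and 4.08% of the Mrpl genes and 17.9% and 0.0% of the Mrps genes. The shares of all tested genes were 27.3% and 9.13%, with a median of 0.10. An unadjusted p under 0.05 was reached by 14 of 49 Mrpl and 5 of 28 Mrps genes, against 46.8% of all tested genes. With genes placed by structure, the counts were 10 higher and 2 lower of 51 for the large subunit and 5 higher and 0 lower of 25 for the small. Both subunits held a few called genes and many near 0, and no test between them was made. With medians of ratios the large-subunit symbols had 1 higher and 7 lower, and the small-subunit symbols 1 higher and 4 lower. All tested genes were then higher in 15.5% and lower in 16.7%.

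The gene with the largest rise was Mrpl49 (chr19:6053622-6057785, GRCm38), which encodes a mitochondria-specific protein of the large subunit. Its levels were 27.0, 25.1 and 26.0 TPM with DMSO and 36.8, 37.0 and 37.2 TPM with ponatinib. The groups were far apart and the ponatinib libraries nearly equal. The log2 difference was 0.49 ± 0.06 (SE, limma adjusted p = 0.00109), and 0.39 with medians of ratios. Mrpl49 starts 59 bases from Fau, which is read in the other direction and encodes the cytosolic ribosomal protein S30. Fau stood at 2852 TPM with DMSO and 2939 TPM with ponatinib, a log2 difference of 0.05 ± 0.06 (SE, adjusted p = 0.611). Exons of Mrpl49 overlap those of Syvn1 on the opposite strand, and without strand such reads cannot be told apart. Syvn1 stood at 13.1 TPM with DMSO and 12.3 TPM with ponatinib (log2 difference -0.07, limma adjusted p = 0.67).

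Mrps21 (chr3:95862634-95871519) had the largest rise of the small subunit. It encodes the counterpart of bacterial bS21. Levels were 195.9, 193.1 and 169.8 TPM with DMSO and 254.4, 266.5 and 262.7 TPM with ponatinib. Every ponatinib library lay above every DMSO library, and DMSO replicate 3 was the lowest. The log2 difference was 0.49 ± 0.06 (SE, limma adjusted p = 0.00141), and 0.39 with medians of ratios.

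Mrpl42 (chr10:95480805-95501940), a mitochondria-specific protein, was measured at 197.4, 209.6 and 170.5 TPM with DMSO and at 249.6, 260.8 and 241.7 TPM with ponatinib. The lowest ponatinib library was above the highest DMSO library, and the log2 difference was 0.38 ± 0.08 (SE, limma adjusted p = 0.00768). Mrpl18 (chr17:12911349-12916345), the counterpart of uL18 in the central protuberance of the large subunit, was measured at 148.0, 151.0 and 134.9 TPM and at 175.4, 180.1 and 182.5 TPM. Its groups did not overlap, and the log2 difference was 0.31 ± 0.06 (SE, adjusted p = 0.00494). Exons of Mrpl18 overlap those of Tcp1, a chaperonin subunit on the opposite strand. Without strand, reads of the overlap cannot be told apart, and Tcp1 stood at 580 TPM with DMSO and 551 TPM with ponatinib (log2 difference -0.08, adjusted p = 0.273). Mrpl42 (adjusted p = 0.0642) and Mrpl18 (adjusted p = 0.0587) were no longer called with medians of ratios.

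Mrpl12, the counterpart of bL12, forms the stalk that recruits translation factors. It was measured at 199.4, 204.5 and 190.7 TPM with DMSO and at 225.4, 232.0 and 243.1 TPM with ponatinib, without overlap (log2 difference 0.24 ± 0.05 SE, limma adjusted p = 0.00980). Mrpl33 stood at 235.4, 225.8 and 211.7 TPM and at 273.7, 267.2 and 266.0 TPM (log2 difference 0.26 ± 0.05 SE, adjusted p = 0.00699). In the small subunit Mrps6, the counterpart of bS6, stood at 119.8, 123.0 and 112.9 TPM and at 137.4, 147.4 and 146.4 TPM (log2 difference 0.28 ± 0.06 SE, adjusted p = 0.00727). All 3 genes had the ponatinib libraries on top. Their adjusted p were 0.128, 0.115 and 0.0778 with medians of ratios, so none of these 3 was then called. Mrps6 shares exons on the same strand with Slc5a3, a transporter gene at 1.86 TPM with DMSO and 2.62 TPM with ponatinib. In all, exons of 33 members overlap another gene, 28 of them on the opposite strand and 8 on the same strand, and 9 of these 33 were called.

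**Figure D4:**
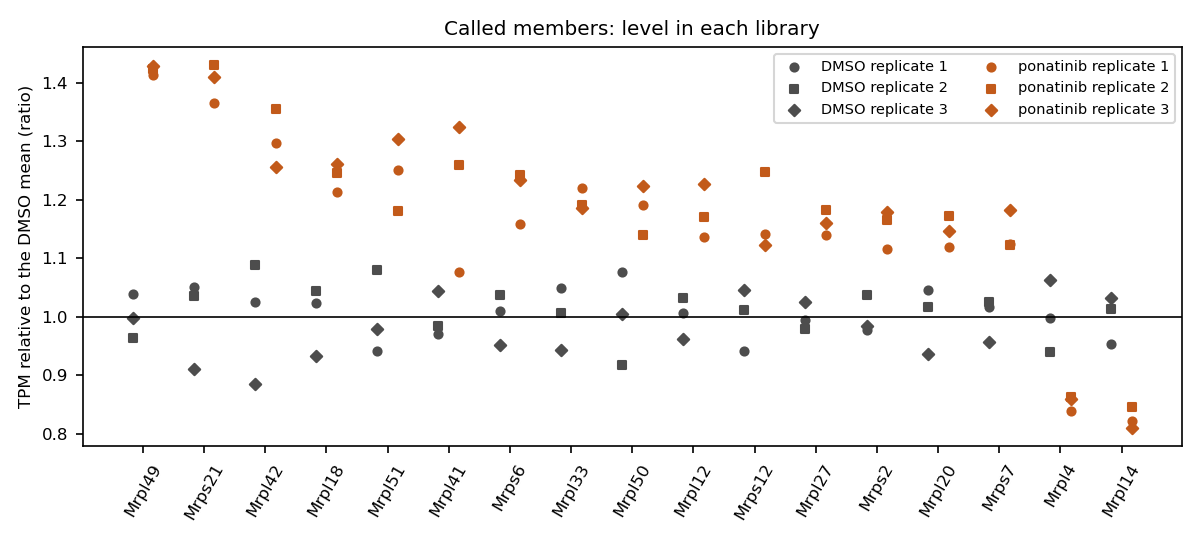
TPM of the 15 genes that rose and the 2 that fell, in each library, divided by the gene's DMSO mean. Grey points are DMSO and orange points ponatinib libraries, with a marker for each replicate. The groups of every gene are separate, and Mrpl49 shows the tightest ponatinib values.

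Some of the other rises lost their call when a library was left out. Mrpl51, at 25.5, 29.2 and 26.5 TPM with DMSO and 33.9, 32.0 and 35.3 TPM with ponatinib, rose by a log2 difference of 0.31 (limma adjusted p = 0.0149), but its adjusted p was 0.0596 without DMSO replicate 1 and 0.0654 without ponatinib replicate 3. Mrpl41, at 63.6, 64.5 and 68.5 TPM and 70.5, 82.5 and 86.7 TPM, rose by 0.28 (adjusted p = 0.0309). Its adjusted p lay between 0.0769 and 0.113 in the 4 fits that left out DMSO replicate 1 or 2 or ponatinib replicate 2 or 3. Both genes encode mitochondria-specific proteins, and neither was called with medians of ratios.

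Mrps12, the counterpart of uS12 at the decoding centre, stood at 70.7, 76.0 and 78.6 TPM with DMSO and 85.7, 93.7 and 84.3 TPM with ponatinib. The rise of 0.22 (limma adjusted p = 0.0291) was called with all libraries and without DMSO replicate 3, and in the other 5 fits that left out a library its adjusted p was 0.0546 to 0.117. Mrps2, the counterpart of uS2, rose by 0.20 (adjusted p = 0.0305) and was at 0.106 without DMSO replicate 1 or ponatinib replicate 3 and at 0.111 without ponatinib replicate 2. Mrps7, the counterpart of uS7 in the head of the small subunit, rose by 0.19 (adjusted p = 0.0274). Its adjusted p was 0.0535 to 0.102 without DMSO replicate 1 or any 1 of the ponatinib libraries. None of the 3 was called with medians of ratios or quantile normalization.

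The other 3 large-subunit genes that rose were Mrpl20, Mrpl27 and Mrpl50, by log2 differences of 0.20, 0.21 and 0.24 (limma adjusted p of 0.0245, 0.0131 and 0.0404). Mrpl27 is the counterpart of bL27 beside the peptidyl transferase centre, and Mrpl20 that of bL20. Of the 17 called members, 8 kept their call in all 6 fits that left out a library: Mrpl12, Mrpl14, Mrpl18, Mrpl33, Mrpl42, Mrpl49, Mrps6 and Mrps21. The other 9 lost it in at least 1 such fit. Just inside the threshold lay Mrpl50, and just outside it Mrpl11, the counterpart of uL11 at the base of the stalk, with a log2 difference of 0.30 (adjusted p = 0.0598).

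Both genes that fell encode large-subunit proteins with bacterial counterparts. Mrpl14 (chr17:45686322-45698495) encodes the counterpart of uL14, which lies at the subunit interface and binds the assembly factor MALSU1. Its levels were 65.7, 69.8 and 71.1 TPM with DMSO and 56.6, 58.3 and 55.8 TPM with ponatinib. The groups did not overlap, and the log2 difference was -0.27 ± 0.06 (SE, limma adjusted p = 0.00794). This call was kept under all 16 alternatives tried, at values between -0.37 and -0.25.

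Mrpl4 (chr9:21002738-21008839), the counterpart of uL4 in the wall of the exit tunnel, stood at 88.1, 83.1 and 93.8 TPM with DMSO and at 74.1, 76.3 and 75.8 TPM with ponatinib. The highest ponatinib library lay under the lowest DMSO library (log2 difference -0.22 ± 0.06 SE, limma adjusted p = 0.0205). Its adjusted p was 0.0612 to 0.0644 without DMSO replicate 1 or any 1 of the ponatinib libraries. The largest fitted decrease among uncalled genes was that of Mrps35, a mitochondria-specific protein of the small subunit, at 26.5, 31.0 and 22.3 TPM with DMSO and 21.4, 24.1 and 19.3 TPM with ponatinib. Its groups overlapped (log2 difference -0.28 ± 0.13 SE, adjusted p = 0.118).

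Several members with known special roles were not called. Mrpl44, which has the fold of an RNase III enzyme, stood at 44.6 ± 5.54 TPM with DMSO and 39.9 ± 1.36 TPM with ponatinib (SD, n = 3 each), a log2 difference of -0.15 (limma adjusted p = 0.214). DMSO replicate 3 was its highest library, at 51.0 TPM. Mrpl45, which lies by the exit tunnel at the inner membrane, stood at 59.3 ± 5.95 and 59.6 ± 2.51 TPM. Mrpl58, a peptidyl-tRNA hydrolase built into the large subunit, stood at 79.2 ± 5.69 and 85.4 ± 3.69 TPM (log2 difference 0.11, adjusted p = 0.234). Mrpl44 was called lower with medians of ratios (adjusted p = 0.0258).

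The 3 mammalian relatives of bacterial S18 occupy different places in the ribosome and lay between 95.9 and 142.5 TPM in every library. Mrps18a, in the large subunit, stood at 101 ± 1.20 TPM with DMSO and 97.7 ± 1.51 TPM with ponatinib. Mrps18b stood at 131 ± 4.47 and 140 ± 2.63 TPM, and Mrps18c at 138 ± 2.61 and 131 ± 3.54 TPM (SD, n = 3 each). Their log2 differences were -0.05, 0.09 and -0.07, none of them called (limma adjusted p of 0.407, 0.188 and 0.286). Mrps18a (adjusted p = 0.0456) and Mrps18c (adjusted p = 0.0344) were called lower with medians of ratios.

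Mrps30, also placed in the large subunit, stood at 33.2 ± 0.982 TPM with DMSO and 30.0 ± 1.98 TPM with ponatinib, with a log2 difference of -0.14 (limma adjusted p = 0.138, and 0.0159 with medians of ratios). Its ponatinib libraries, at 27.8, 30.6 and 31.6 TPM, were all below its DMSO libraries. Mrps36, now known as a subunit of the alpha-ketoglutarate dehydrogenase complex, was at 110 ± 5.50 and 114 ± 8.31 TPM, and its groups overlapped. Mrps25 was the only member under the minimum for testing, at 8.03, 8.25 and 8.27 TPM with DMSO and 8.22, 8.04 and 8.62 TPM with ponatinib.

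Grouping followed the unified nomenclature, so Mrps18a and Mrps18b, though relatives of bacterial S18, and Mrps36, counted in neither subunit, were placed without a counterpart. By these names 46 members have a bacterial counterpart, and 32 do not and are called mitochondria-specific. Of the former 10 rose and 2 fell (median log2 difference 0.03), and of the 31 tested of the latter 5 rose and 0 fell (median 0.02). These were 21.7% and 4.35% of the former and 16.1% and 0.0% of the latter. The shares of all tested genes were 27.3% and 9.13%. All 5 small-subunit genes that rose belong to the 16 with a bacterial counterpart, 31.2% of which rose. Of the 12 tested mitochondria-specific genes with small-subunit symbols, 0 were called by limma and 0 had an unadjusted p under 0.05, as 46.8% of all tested genes had. That 0 did not hold in every setting: Mrps18a and Mrps30 were called lower with medians of ratios, Mrps30 also with quantile normalization, and Mrps35 without DMSO replicate 3 and with the replicate number in the fit. In the large subunit the called genes were spread over both classes. With a counterpart 5 of 30 were higher (16.7%) and 2 lower (6.67%), and without one 5 of 19 were higher (26.3%). With medians of ratios the 2 classes over both subunits had 1 higher and 6 lower, and 1 higher and 5 lower. All tested genes were then higher in 15.5% and lower in 16.7%. The difference between the classes was not tested.

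The deposited table listed many transcripts in rows of their own, outside the gene rows, and 57 such rows belonged to 35 members. By their annotated type, 33 were protein-coding and 24 were marked as targets of nonsense-mediated decay, the pathway that degrades messenger RNAs with early stop codons. In 7 members these rows held over 50% of the gene's TPM, 9.09% of tested members against 4.71% of all tested genes. They were Mrpl17 (97.8%), Mrpl3 (96.4%), Mrps14 (90.0%), Mrpl32 (86.9%), Mrpl48 (73.2%), Mrpl35 (71.7%) and Mrps5 (64.7%), chosen after their values were seen. None of the 7 was called with the values as deposited, and Mrpl32 and Mrps14 were called lower with medians of ratios. In 4 of them rows of the decay type alone held over 50%. For Mrps14 a single such transcript, Mrps14-201, stood at 101 ± 8.45 TPM with DMSO and 95.9 ± 6.27 TPM with ponatinib (SD, n = 3 each). For Mrpl17 the transcript Mrpl17-204, typed as protein-coding, stood at 125 ± 12.7 and 133 ± 11.8 TPM.

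**Figure D5:**
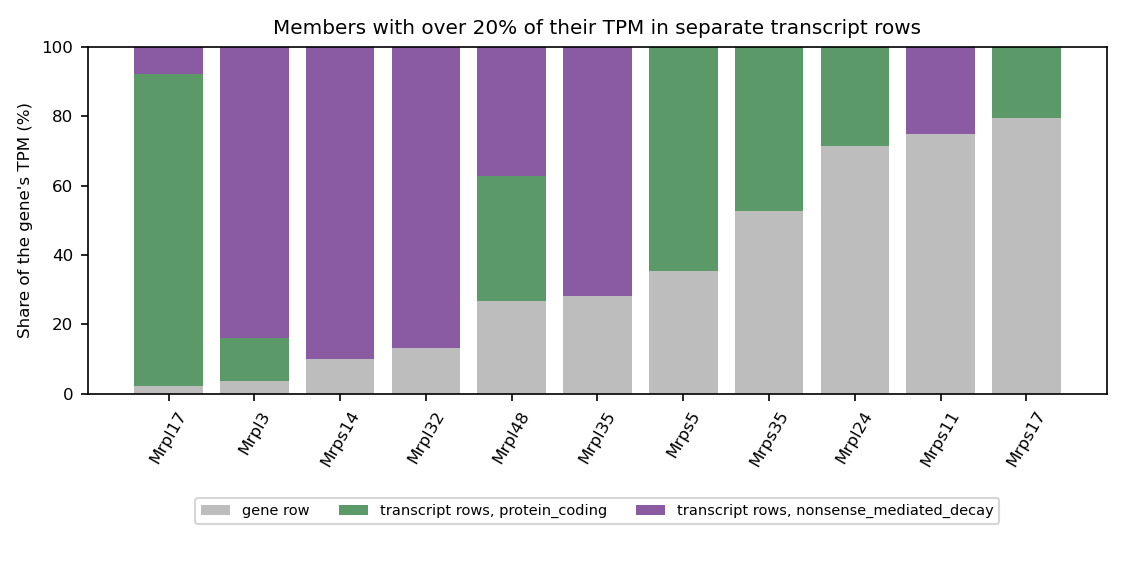
Share of each gene's TPM, averaged over the 6 libraries, that stood in its gene row (grey) and in separate transcript rows of the protein-coding type (green) or the nonsense-mediated decay type (purple), for the members with over 20% in transcript rows. Mrpl17 and Mrpl3 are almost wholly in transcript rows.

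Many members share their promoter region with another gene. A protein-coding gene read in the opposite direction started within 1000 bases of 18 of the 78 members (23.1%), as for 12.7% of tested protein-coding genes. Of these neighbours 10 were tested, 1 rose and 1 fell, and in 0 pairs were both genes called. Ppp1r10, a phosphatase regulatory subunit that starts 45 bases from Mrps18b, stood at 31.7 ± 1.57 TPM with DMSO and 42.6 ± 2.73 TPM with ponatinib (limma adjusted p = 0.00387). Apba3, 26 bases from Mrpl54, stood at 34.4 ± 0.757 and 20.1 ± 2.44 TPM (adjusted p = 0.00116), while Mrpl54 stood at 218 ± 4.58 and 225 ± 2.98 TPM (SD, n = 3 each). Ncapd2, a condensin subunit 100 bases from Mrpl51, and Sars2, the mitochondrial seryl-tRNA synthetase 172 bases from Mrps12, had log2 differences of 0.08 and 0.06 and were not called.

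The other genes of mitochondrial translation were read from lists of known components. Of all tested genes 27.3% rose and 9.13% fell. Of the 5 ribosomal proteins with other symbols, 0 rose and 2 fell. Dap3, a GTP-binding protein of the small subunit, was at 124.1, 119.0 and 128.4 TPM with DMSO and 105.1, 103.2 and 109.7 TPM with ponatinib, without overlap (log2 difference -0.22 ± 0.05 SE, limma adjusted p = 0.0136). Gadd45gip1, a large-subunit protein, had a log2 difference of -0.24 (adjusted p = 0.0258). Of 9 tested translation factors 1 rose, the elongation factor gene Gfm1 (log2 difference 0.25, adjusted p = 0.0342). Tufm, the elongation factor that delivers aminoacyl-tRNA, stood at 182 ± 14.9 and 192 ± 6.44 TPM (SD, n = 3 each) and was not called (adjusted p = 0.391). When libraries were rescaled by medians of ratios, 0 of the 5 were higher and 3 lower, and 0 of the 9 were higher and 1 lower. Of all tested genes 15.5% were then higher and 16.7% lower.

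Of 19 tested assembly and rRNA modification factors, 3 rose (15.8%) and 1 fell (5.26%), with a median log2 difference of 0.11. Of all tested genes 27.3% rose and 9.13% fell, with a median of 0.10. The genes that rose were Mterf3, Mrm3, a methyltransferase of the large-subunit rRNA, and Fastkd2, an RNA-binding assembly factor, by 0.37, 0.35 and 0.34 (limma adjusted p of 0.00965, 0.00801 and 0.0213). Ddx28, a helicase of large-subunit assembly, fell by 0.30 (adjusted p = 0.0278). After rescaling by medians of ratios 2 of the 19 were higher and 1 lower, against 15.5% and 16.7% of all tested genes.

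Genes of mitochondrial transcription and RNA stability rose in 4 of 8 cases, and 0 fell. Across all tested genes 27.3% rose and 9.13% fell. The median log2 difference of the 8 was 0.11, against 0.10 for all tested genes, and the difference in shares was not tested. Tfb2m, the factor that opens mitochondrial promoters, was at 13.3, 11.9 and 12.5 TPM with DMSO and 18.7, 19.5 and 19.9 TPM with ponatinib, without overlap. Its log2 difference was 0.59 ± 0.08 (SE, limma adjusted p = 0.00144), larger than that of any member of the ribosome. Polrmt, the mitochondrial RNA polymerase, Lrpprc, which stabilises mitochondrial messenger RNAs, and Tfam, which packages mitochondrial DNA, rose by 0.33, 0.23 and 0.20 (adjusted p of 0.0140, 0.0127 and 0.0288). Only 1 of the 8 (12.5%) was called higher with medians of ratios, against 15.5% of all tested genes. Of the 13 mitochondrial messenger RNAs themselves, 0 were called by limma and 0 had an unadjusted p under 0.05 with all libraries, but without DMSO replicate 3 11 of the 13 were called lower, with a median log2 difference of -0.41 rather than -0.09. Their summed TPM were 97640, 106900 and 47820 with DMSO and 79770, 81900 and 71590 with ponatinib, so the groups overlapped through DMSO replicate 3 alone. The mitochondrial ribosomal RNAs were not analysed here.

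Among 7 tested regulators of nuclear genes for mitochondria, 2 rose (28.6%) and 1 fell (14.3%), against 27.3% and 9.13% of all tested genes. Yy1 and Pprc1, a coactivator related to PGC-1, rose by 0.20 and 0.17 (limma adjusted p of 0.0294 and 0.0365), and neither was called with medians of ratios. Myc was at 263.9, 250.8 and 365.9 TPM with DMSO and 195.9, 207.7 and 219.4 TPM with ponatinib. Its log2 difference was -0.48 (adjusted p = 0.0247), and DMSO replicate 3 was its highest library. Nrf1 and Gabpa had log2 differences of 0.22 and 0.20 and were not called (adjusted p of 0.0545 and 0.128).

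For comparison, the cytosolic ribosomal proteins had a median log2 difference of -0.05, with 2 of 80 higher and 13 lower. The nuclear-encoded subunits of oxidative phosphorylation had one of 0.01, with 9 of 77 higher and 3 lower. With medians of ratios these counts were 1 higher and 35 lower, and 2 higher and 21 lower. With quantile normalization they were 12 higher and 7 lower, and 3 higher and 14 lower. Of all tested genes 27.3% were higher and 9.13% lower as deposited, 15.5% and 16.7% with medians of ratios, and 18.3% and 14.5% with quantile normalization. With the minimum of 10 TPM the mitochondrial ribosomal proteins, at 0.03, and both of these lists lay below the median of all tested genes, 0.10. Without a filter that median was 0.03, level with the mitochondrial ribosomal proteins. No test between the lists was made.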

How the data were processed

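RNA sequencing libraries were made with a NEBNext Ultra II RNA kit, per the labels' protocols, which do not say whether strand was kept. The deposited table holds 1 column per library that sums to 1000000, and its deposited values were treated as TPM, although its name speaks of normalized counts. Salmon 1.5.1, fastp 0.19.5, DESeq2 1.22.1 and the build GRCm38 appear in the submitters' processing notes, without their roles. The sources used here do not say how reads shared with pseudogenes or related copies were assigned.

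Names and coordinates came from GENCODE M21 on GRCm38. Of 43072 rows, 20977 were transcript rows, which were added to their gene. TPM keep no read depth, so no counting interval is given. From low values, 1 read on 1000 bases was worth an estimated 0.0388 to 0.0489 TPM. The 6816 genes whose mean reached 10 TPM were compared with limma 3.58.1 (lmFit, eBayes with trend, two-sided, R 4.3.3) on log2(TPM + 1), which understates changes of low genes. Calls needed a Benjamini-Hochberg adjusted p under 0.05 over all tested genes, and all adjusted p in the text come from limma. The procedure was tested on simulated data. Samples were grouped by their titles. Other pseudocounts, filters, scalings, variance estimates and row sets, a replicate term and leaving out each library were tried as alternatives.

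The members and lists were chosen with earlier results of these data known. Named were, per subunit, the 6 called members with the largest difference in each direction, the 3 highest by level, those under the minimum and 10 panel genes (Mrpl12, Mrpl44, Mrpl45, Mrpl58, Mrps12, Mrps18a, Mrps18b, Mrps18c, Mrps30, Mrps36); other members appear where counts were small. Of each related list up to 3 called genes with the smallest p were named, and Myc, Nrf1, Gabpa, Tfam and Tufm.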

Additional observations from a re-analysis of the deposited data

How the results depend on the processing

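Pseudocounts of 0.1 and 5, a minimum of 1 TPM, robust or untrended variance estimation and placing genes by structure left the counts within 1.5 times of 10 higher and 2 lower Mrpl and 5 higher and 0 lower Mrps genes. With medians of ratios 1 Mrpl gene was higher and 7 lower, 1 Mrps gene was higher and 4 lower, and the medians were -0.070 (Mrpl) and -0.086 (Mrps). In that setting 15.5% of all tested genes were higher and 16.7% lower. With quantile normalization 4 Mrpl genes were lower, 2 Mrps genes higher and 2 lower, and the medians were -0.03 (Mrpl) and -0.060 (Mrps). With 1 library left out, Mrpl counts ranged from 6 to 11 higher and from 1 to 2 lower, and Mrps counts from 2 to 6 higher and from 0 to 1 lower. The fewest higher calls over both subunits, 8, came without ponatinib replicate 2 and without ponatinib replicate 3, and the most, 17, without DMSO replicate 3. Deviations of same-numbered libraries from their group means correlated at -0.10, 0.11 and 0.02, so the numbers were not taken as pairs. The replicate block gave 1 lower Mrps gene, Mrps35, added Mrpl11 and lost Mrps7, and changed no other call of a member. Without a filter on low values Mrpl41 and Mrpl50 were lost, the share of members that rose (16.7%) was above that of all genes (13.5%), and the Mrpl median was level with that of all genes, and with gene rows alone 16 members rose and 2 fell. The causes were not tested.

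With 3 libraries a group, 9 of the 17 calls were lost in at least 1 fit that left out a library, and an uncalled gene is not shown to be unchanged. TPM keep no depth, so counting error cannot be separated from other spread.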
